A study of Mus musculus with 6 samples.

Results

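The p53 pathway module described here held 41 genes: p53 itself (Trp53), its regulators, and genes listed as p53 targets. Members were matched by gene symbol to the probe annotation of the array, and 38 of the 41 had a probe (39 probes in all). Trp53, Ddb2 and Fdxr had no annotated probe and were not analysed here, so the level of p53 mRNA itself was not measured. All 38 passed the filter on dim probes, out of 17390 genes tested and 19321 with a probe. Trp73 passed with a raw signal above the blank spots on 3 of the 6 arrays and is close to undetected.

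The cells were oligodendrocyte precursor cells, glial progenitors whose descendants make myelin, taken from E15.5 forebrain of Jcl:ICR mice. All 6 samples were kept in FGF2 and PDGF-AA. The control group was 3 samples infected with a control retrovirus, and the knockdown group was 3 samples infected with a retrovirus that knocked down Chd7, a chromatin remodeller gene. Cells were collected 3 days after infection. Each sample was hybridised to its own single-colour array. The labels do not give the knockdown sequence, the share of infected cells or how the replicates were obtained, and the p-values therefore rest on a spread among samples that may be technical.

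p53 is a transcription factor that is held low by the ubiquitin ligase Mdm2 and by its relative Mdm4, and that is stabilised by DNA damage and other stresses. Its targets stop the cell cycle, repair DNA, change metabolism or trigger cell death, and some of them, Mdm2 and Ppm1d among these, act back on p53 to switch it off. In neural and glial progenitors the pathway is known for limiting proliferation and for removing damaged cells. Loss of CHD7 has been linked to p53 activation in other embryonic tissues.

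p53 binds a tandem of 2 copies of a 10-base motif (3 purines, C, 2 bases that are A or T, G, 3 pyrimidines), which reads the same on both strands. RefSeq promoters of build GRCm38.p6, from 250 bases before to 50 bases after the annotated start, were present for 34 of the 41 members (43 promoters, since some genes have several starts). An exact 10-base motif was found in 11 of these 34 genes (32.4%), against 2582 of all 27025 genes with a promoter (9.55%). A 20-base site, defined as 2 adjoining copies with at most 3 mismatches in all and with C and G of each copy kept, was found in 7 of the 34 (20.6%), against 441 of 27025 (1.63%). The list was drawn up around p53, its regulators and genes listed as its targets, so this is a description of the list and not a result about Chd7. Their promoters were also richer in G and C (median 62.3%, against 52.7% of all). A match is a run of letters and not a bound site, and no match says only that the letters were not in this window.

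The promoters below are shown because they hold the strongest matches, or hold a match and belong to a member whose mRNA changed. Each is printed 5′ to 3′ on the strand of the gene, with matches in capitals. The promoter of Ccng1 lies at chr11:40755237-40755536 on the minus strand, and its 20-base site starts at -195 with 1 mismatch. That of Rps27l lies at chr9:66946163-66946462 on the plus strand, with a 10-base motif at -210 and a 20-base site at -117 that has 1 mismatch. The window of the other annotated start of Rps27l, chr9:66945836-66946135, held no match. That of Mdm2 lies at chr10:117710709-117711008 on the minus strand and holds a single 10-base motif at -186.
Ccng1: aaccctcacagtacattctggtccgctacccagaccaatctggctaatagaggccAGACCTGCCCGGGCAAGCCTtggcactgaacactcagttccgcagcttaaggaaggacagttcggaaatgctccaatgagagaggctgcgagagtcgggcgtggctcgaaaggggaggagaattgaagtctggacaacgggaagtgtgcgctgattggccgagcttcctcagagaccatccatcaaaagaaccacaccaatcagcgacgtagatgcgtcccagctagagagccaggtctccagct
Rps27l: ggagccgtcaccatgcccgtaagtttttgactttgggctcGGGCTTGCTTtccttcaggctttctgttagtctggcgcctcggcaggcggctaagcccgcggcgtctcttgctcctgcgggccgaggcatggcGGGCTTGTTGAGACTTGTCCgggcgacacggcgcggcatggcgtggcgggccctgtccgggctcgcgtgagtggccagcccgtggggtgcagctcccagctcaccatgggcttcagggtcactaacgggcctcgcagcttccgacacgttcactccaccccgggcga
Mdm2: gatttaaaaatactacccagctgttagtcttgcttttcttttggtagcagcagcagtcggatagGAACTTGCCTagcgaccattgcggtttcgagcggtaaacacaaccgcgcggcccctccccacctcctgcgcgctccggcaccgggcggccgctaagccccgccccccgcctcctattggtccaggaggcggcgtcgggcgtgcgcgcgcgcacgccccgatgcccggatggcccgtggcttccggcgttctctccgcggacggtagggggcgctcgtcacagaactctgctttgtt

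Shorter windows with 10 bases on either side show the 20-base sites of 4 further measured members. The Aen site (chr7:78895808-78896107, plus strand) starts at -121 with 3 mismatches, and falls in the window of both annotated starts. The Sesn1 site (chr10:41887189-41887488, plus strand) starts at -173 with 3 mismatches, the Tigar site (chr6:127109503-127109802, minus strand) at -213 with 3 mismatches, and the Trp73 site (chr4:154097124-154097423, minus strand) at -66 with 2 mismatches. Sesn1 and Trp73 each have another annotated start, whose window held no match.
Aen: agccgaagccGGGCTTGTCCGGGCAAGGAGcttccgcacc
Sesn1: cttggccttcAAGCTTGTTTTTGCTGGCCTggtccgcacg
Tigar: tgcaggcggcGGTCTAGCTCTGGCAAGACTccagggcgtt
Trp73: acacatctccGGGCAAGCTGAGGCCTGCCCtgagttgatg

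**Figure D1:**
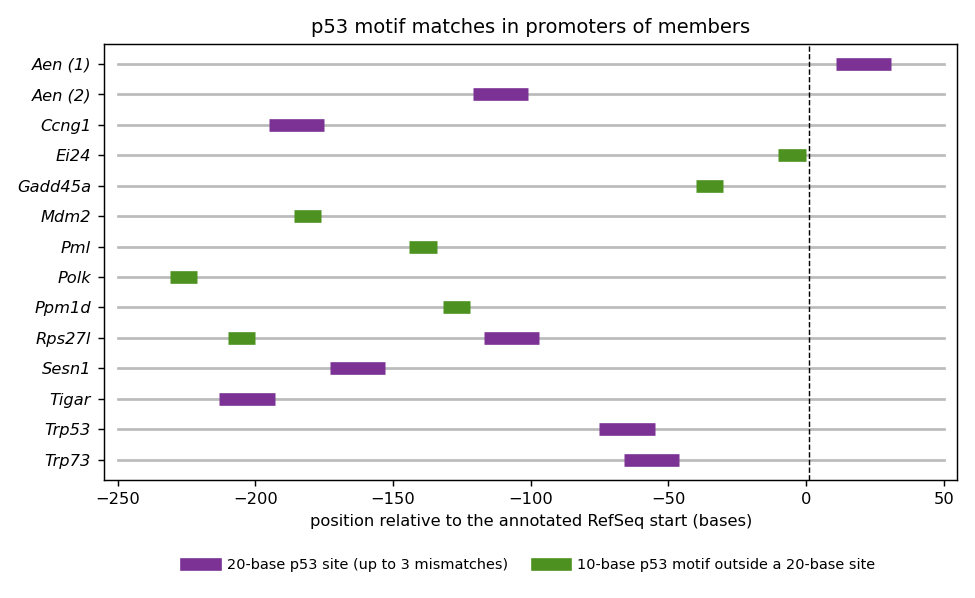
Position of p53 motif matches in the promoters of members that hold any, in bases from the annotated RefSeq start (dashed line); each grey line is a promoter, purple marks a 20-base site and green a 10-base motif outside such a site. The 20-base site of Ccng1 starts at -195 and the motif of Mdm2 at -186, and the 2 Aen windows overlap and hold the same site.

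Median raw probe signals ran from 83.4 to 89.4, blank spots averaged 58.9 to 61.9, and 87.0% to 89.8% of probes exceeded the blank limit. With 3 arrays in each group, precision is set by their number. Chd7 read 9.44, 9.20 and 9.47 (log2 intensity) on control arrays 1, 2 and 3, compared with 8.54, 8.44 and 8.48 on knockdown arrays 1, 2 and 3, without overlap (log2 fold change -0.88, SE 0.0855, adjusted p = 0.00112 in limma). A dimmer second probe of Chd7 fell by less, with a log2 fold change of -0.48 (adjusted p = 0.00411 over all probes in limma). The direction on both probes matched the labels, while the size of the fall differed between them. Of 7 precursor markers tested, 5 fell (Pdgfra, which fell by 1.36 on the log2 scale, Lhfpl3, Sox10, Cspg4 and Olig2), against 5.15% of all genes. The linear signal summed over all 7, Olig1 and Gpr17 included, was 12625 to 14910 in the controls and 9713 to 11010 in the knockdown. Of 7 proliferation markers 4 fell (Top2a, Mcm6, Mki67 and Cdk1), where 5.15% of all genes fell. The sum over all 7 was 16908 to 17795 in the controls and 14058 to 16510 in the knockdown. No marker of mature oligodendrocytes (5 tested), astrocytes (6), microglia and blood cells (5), endothelial cells (2) or fibroblasts and pericytes (6) passed, and of 6 neuronal markers Dcx alone did (it fell by 0.71). At an unadjusted p below 0.05, which 11.9% of all genes met as higher and 12.8% as lower, limma gave 1, 2, 0, 0 and 1 genes for those 5 lists. With the replicate number as a block in the fit, 2 markers of mature oligodendrocytes and 1 of astrocytes were called higher, and 1 neuronal marker higher and 2 lower. Of all genes, 7.37% were called higher and 7.44% lower with that block. The microglial marker Itgam and the endothelial markers Pecam1, Cldn5 and Tek did not pass the filter on dim probes. Whether these shifts in precursor and proliferation genes have a part in the changes of the p53 module was not tested. Fewer cells of a type and less RNA per cell cannot be told apart in such samples.

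In all, 6 members carried higher mRNA levels in the Chd7 knockdown and 2 carried lower levels. Those that rose were Phlda3, Zmat3, Ccng1, Dcxr, Mdm2 and Plk3, and those that fell were Ccng2 and Fbxw7, by limma with an adjusted p below 0.05 over all genes (called passing below). That was 6 of 38 (15.8%) against 4.49% of all tested genes higher, and 2 of 38 (5.26%) against 5.15% lower. The share that rose was thus above the background and the share that fell was near it. The members were chosen with earlier results of these data known, so these shares describe the list and are not an independent test. The members whose groups shared no range of values were 9 on the higher side (23.7%, against 14.5% of all genes) and 5 on the lower side (13.2%, against 15.4%). Of the 38, 26 had a positive change (68.4%, against 50.6% of all genes), and the median log2 fold change was 0.05 against 0.00077 over all genes. Bright probes pass more often: among genes above the median signal 6.84% rose and 8.04% fell, and 5 (17.9%) and 2 of the 28 members there did.

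**Figure D2:**
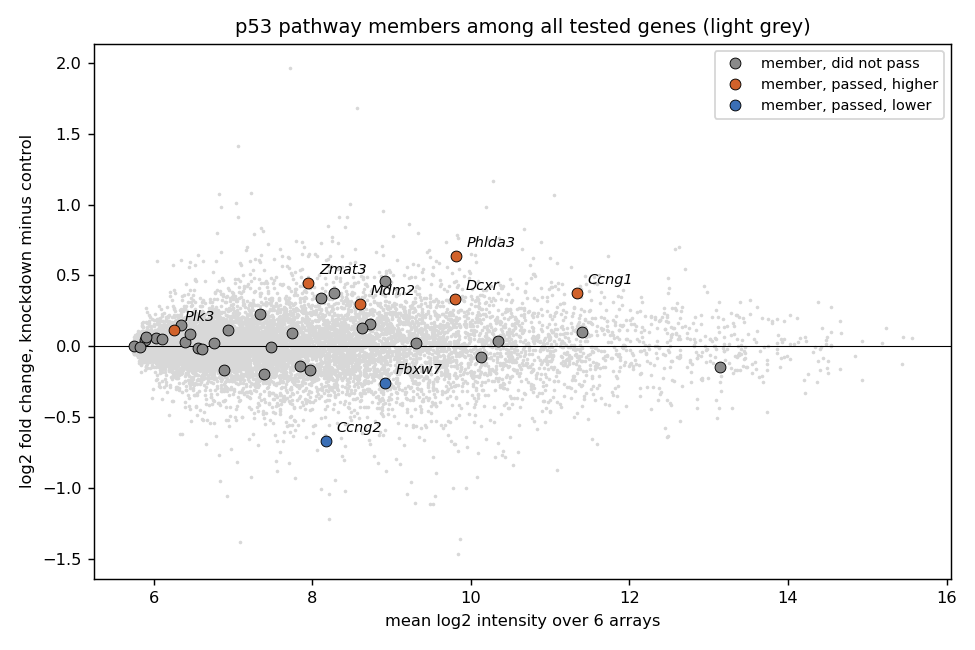
log2 fold change (knockdown minus control) against mean log2 intensity over the 6 arrays for all 17390 tested genes (light grey) and the 38 members (large points). The 6 orange points passed as higher and the 2 blue points as lower, with Phlda3 at 0.64 and Ccng2 at -0.67 as the outermost members.

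In the authors' own processed values 3 members rose and 2 fell, and over all genes 357 rose and 735 fell, against 781 and 896 in the values used here. With the replicate number as a block, a fit that compares arrays of the same number, 10 members rose and 2 fell, where 7.37% of all genes rose and 7.44% fell. Beside the 6 above these were Plk2, Fas, Gadd45a and Pidd1. Of the 8 calls, 3 (Phlda3, Zmat3 and Ccng2) passed under each of 18 alternatives tried, other than the fits within a scanner gain group, and 3 (Mdm2, Plk3 and Fbxw7) did not pass in any of the 6 fits that left out 1 array.

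Among p53 and its regulators, 8 genes were tested, 1 rose, 1 fell and 6 did not pass (all genes, 4.49% higher and 5.15% lower). Mdm2, which tags p53 for degradation and is itself switched on by p53, read 8.41, 8.52 and 8.42 on control arrays 1, 2 and 3, compared with 8.88, 8.72 and 8.65 on knockdown arrays 1, 2 and 3. Each knockdown array lay above each control array, and knockdown replicate 1 was the highest. The log2 fold change was 0.30 (SE 0.0764, adjusted p = 0.0422), or 1.23-fold. The Mdm2 call was lost whichever array was left out (adjusted p reaching 0.131), with median scaling (0.145) and in the authors' processed values (0.163). The window printed above is that of the annotated start of Mdm2, and it holds a single copy of the motif. Sequence of Mdm2 outside that window was not searched.

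Mdm4, the relative of Mdm2 that masks the activating part of p53, read 5.85, 5.85 and 5.90 on control arrays compared with 5.89, 5.95 and 5.88 on knockdown arrays. The groups overlapped, and the log2 fold change was 0.04 with a 95% interval of -0.01 to 0.09 (adjusted p = 0.324). This probe is dim, near the floor of 5.64 that the offset of 50 sets, so its change is compressed: in the authors' processed values it was 0.39 (adjusted p = 0.175).

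Ppm1d, the phosphatase WIP1 that removes activating phosphates from p53 and its kinases, read 7.52, 7.48 and 7.47 on control arrays compared with 7.20, 7.40 and 7.29 on knockdown arrays. Its groups did not overlap and lay in the direction opposite to Mdm2, but it did not pass (log2 fold change -0.19, SE 0.0638, adjusted p = 0.0926).

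Fbxw7, the substrate receptor of an SCF ubiquitin ligase that degrades cyclin E, Myc and Notch, was measured by 2 probes. The brighter probe read 8.998, 9.10 and 9.02 on control arrays compared with 8.72, 8.86 and 8.76 on knockdown arrays, without overlap (log2 fold change -0.26, SE 0.0684, adjusted p = 0.0449). The other probe read 7.12, 7.17 and 6.88 against 6.94, 7.08 and 6.995, with overlapping groups and a change of -0.05 (adjusted p = 0.738 over all probes). The call of Fbxw7 thus rested on 1 probe, and it was lost whichever array was left out (adjusted p reaching 0.145), with median scaling (0.116) and with cyclic loess.

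Rps27l, a ribosomal protein paralogue that is a p53 target and modulates p53 turnover, holds the promoter site printed above. It read 13.15, 13.22 and 13.28 on control arrays compared with 13.01, 13.08 and 13.12 on knockdown arrays. All knockdown arrays lay below all control arrays, yet the change was small and did not pass (log2 fold change -0.15, adjusted p = 0.201). Its coding sequence is close to that of Rps27, so its signal cannot be assigned to this copy with certainty. Pml, the scaffold of nuclear bodies that recruit p53, had a log2 fold change of 0.07, the p53-induced death gene Cdip1 of 0.13 and the p53 family member Trp73 of 0.00077, and none of the 3 passed. Pml was 0.45 in the authors' processed values, again as a dim probe, and did not pass there (adjusted p = 0.154).

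The largest changes lay among genes of growth arrest, growth control and stress. Of 13 tested, 4 rose, 1 fell and 8 did not pass (all genes, 4.49% higher and 5.15% lower). Phlda3, a small pleckstrin-homology protein that blocks recruitment of the kinase Akt to the membrane, read 9.45, 9.61 and 9.40 on control arrays compared with 10.19, 10.15 and 10.03 on knockdown arrays. The groups stood apart by more than the range within either of them, and the log2 fold change was 0.64 (SE 0.0825, adjusted p = 0.00291), or 1.56-fold. It was 0.58 to 0.70 over the 18 alternatives.

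Zmat3, an RNA-binding zinc finger protein gene, read 7.73, 7.77 and 7.67 on control arrays compared with 8.27, 8.16 and 8.08 on knockdown arrays. No arrays overlapped, and the log2 fold change was 0.45 (SE 0.0672, adjusted p = 0.00496), or 1.36-fold.

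The 2 G-type cyclin genes moved in opposite directions. Ccng1, whose product recruits protein phosphatase 2A to Mdm2, read 11.15, 11.22 and 11.07 on control arrays compared with 11.50, 11.53 and 11.53 on knockdown arrays. It rose by 0.37 (SE 0.0694, adjusted p = 0.0123). The knockdown arrays differed by 0.03 and stood above all controls. Adjusted p was 0.0516 with knockdown array 2 left out and 0.0581 under median scaling, so both lost the call. Its promoter site has a single mismatch.

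Ccng2, an unconventional cyclin that slows the cell cycle and is also known as a target of FOXO factors, had the largest change of the module. It read 8.51, 8.51 and 8.49 on control arrays compared with 7.83, 7.90 and 7.77 on knockdown arrays. The controls differed by 0.02 at most and all knockdown arrays lay far below them. Ccng2 fell by 0.67 (SE 0.0604, adjusted p = 0.000818); the knockdown signal was 0.629 times the control signal. Its RefSeq promoter held no p53 motif match.

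Plk3, a stress-activated polo-like kinase gene, read 6.21, 6.22 and 6.16 on control arrays compared with 6.30, 6.32 and 6.31 on knockdown arrays. The groups did not overlap, but the change was the smallest of those that passed (log2 fold change 0.11, SE 0.0301, adjusted p = 0.048). With an offset of 16 it was 0.20 and in the authors' processed values 0.35, where it did not pass (adjusted p = 0.0797). Adjusted over all probes in place of genes, its p was 0.0521, which also lost the call. Each of the 6 fits with 1 array left out lost the call, with adjusted p reaching 0.142. Its paralogue Plk2, a kinase that acts in centriole duplication and at synapses, read 8.37, 8.97 and 8.70 on control arrays compared with 8.99, 9.15 and 9.28 on knockdown arrays. Control replicate 1 was low and control replicate 2 lay just under knockdown replicate 1. Plk2 did not pass (log2 fold change 0.46, SE 0.141, adjusted p = 0.0763; 0.30 without control replicate 1), but adjusted p was 0.0091 under the replicate block and 0.0335 with control array 2 left out.

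The 3 Gadd45 genes, sensors of stress that bind cyclin-dependent kinase 1 and stress kinases, differed in their values. Gadd45a read 7.69, 8.14 and 7.98 on control arrays compared with 8.32, 8.34 and 8.17 on knockdown arrays. Control replicate 1 was low and the groups stood apart narrowly (log2 fold change 0.34, SE 0.109, adjusted p = 0.0863). Its change was 0.22 without control replicate 1, and adjusted p was 0.0301 under the replicate block and 0.0484 with control array 2 left out. The log2 fold change of Gadd45b was 0.11 and that of Gadd45g -0.08, with overlapping arrays and adjusted p of 0.262 and 0.741 in limma. The change of Gadd45g was 0.04 without control replicate 3. Differences between the 3 genes were not tested.

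The other members of this group did not pass and overlapped between groups. Their log2 fold changes were 0.10 for Sesn1, a sestrin that restrains mTORC1, -0.14 for Btg2, an antiproliferative gene, 0.03 for Trp53inp1, which acts in stress-induced autophagy, and 0.06 for Sfn, a 14-3-3 protein gene read near the floor.

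**Figure D3:**
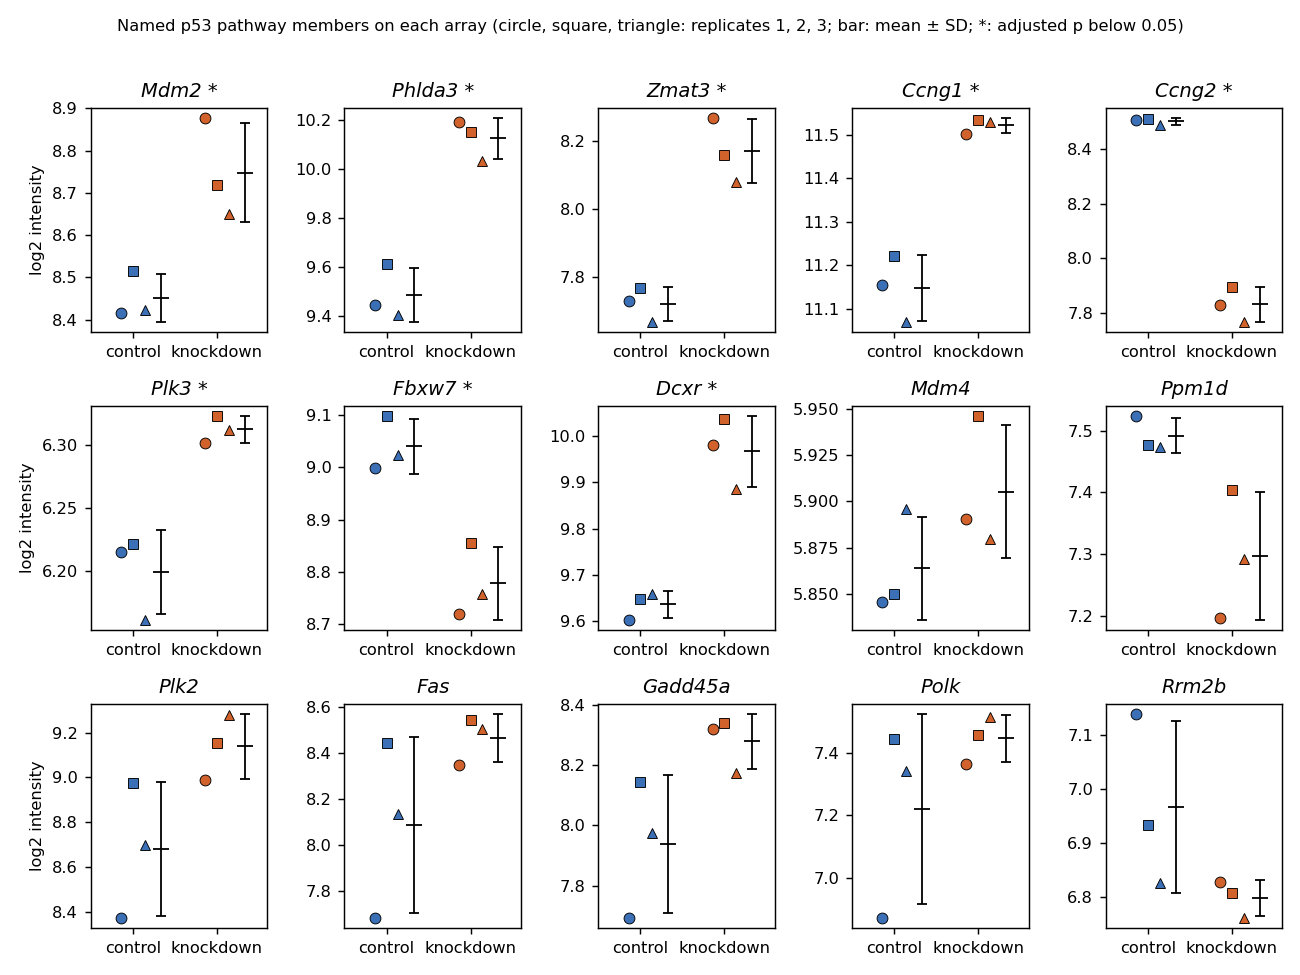
log2 intensity of 15 members on each of the 6 arrays; symbols mark the replicate number, bars give the mean ± SD (n = 3) of each group, and each panel has its own axis, which does not start at 0. Phlda3, Zmat3, Ccng1, Dcxr and Ccng2 separate clearly, while control replicate 1 is the lowest array for Plk2, Fas, Gadd45a and Polk.

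Of the 9 tested genes grouped under cell death, none passed, and at an unadjusted p below 0.05 limma gave 2 that were higher and 0 that were lower (all genes, 11.9% and 12.8%). The role groups were assigned by hand, and some members could stand in another group. Fas, the death receptor, read 7.68, 8.44 and 8.13 on control arrays compared with 8.35, 8.54 and 8.50 on knockdown arrays. The controls spanned 0.76 and overlapped the knockdown, and the log2 fold change of 0.38 (SE 0.162) did not pass (adjusted p = 0.187). Each knockdown array was above the control of the same number, by 0.66, 0.10 and 0.37, and Fas passed with the replicate block (adjusted p = 0.0266). Its change was 0.18 without control replicate 1 and 0.56 without control replicate 2. Pidd1, the scaffold of the complex that activates caspase-2, read 6.25, 6.33 and 6.22 against 6.47, 6.37 and 6.41. Its groups did not overlap (log2 fold change 0.15, adjusted p = 0.0584), and it passed with the block (0.0445). In the authors' processed values its change was 0.42 (adjusted p = 0.124).

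None of the remaining death genes passed. Aen, a nuclease gene with the promoter site shown above, had a log2 fold change of 0.16 with overlapping arrays. The change was 0.05 for Tnfrsf10b, the TRAIL receptor, -0.01 for Apaf1, the core of the apoptosome, -0.02 for Eda2r, a receptor of the ectodysplasin family, and -0.0082 for Dram1, a lysosomal autophagy gene near the floor. Tnfrsf10b is also a dim probe, and its change was 0.26 in the authors' processed values (adjusted p = 0.31). The intervals of Apaf1 and Eda2r ran from -0.10 to 0.07 and from -0.13 to 0.09. Perp, a membrane protein gene, read 7.72, 7.13 and 7.57 on control arrays compared with 7.74, 7.15 and 7.53 on knockdown arrays, a change of -0.0026. Its arrays differed by replicate number far more than by group, with the arrays numbered 2 low in both. Ei24, an endoplasmic reticulum protein gene, read 11.35, 11.36 and 11.34 on control arrays compared with 11.57, 11.65 and 11.11 on knockdown arrays, a log2 fold change of 0.10. Knockdown replicate 3 alone lay below the controls, and without it the change was 0.26.

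None of the 5 genes of DNA repair and nucleotide supply passed, and at an unadjusted p below 0.05 limma gave 0 that were higher and 1 that was lower (all genes, 11.9% and 12.8%). Polk, a translesion DNA polymerase gene, read 6.87, 7.44 and 7.34 on control arrays compared with 7.36, 7.46 and 7.52 on knockdown arrays, with control replicate 1 low and the groups overlapping (log2 fold change 0.23, adjusted p = 0.333). The change of Polk was 0.05 without control replicate 1. Rrm2b, the p53-inducible subunit of ribonucleotide reductase, read 7.14, 6.93 and 6.83 against 6.83, 6.81 and 6.76, a change of -0.17 (adjusted p = 0.212). Without control replicate 1 that change was -0.08. The nuclease gene Ercc5 had a log2 fold change of -0.17 without overlap between groups (adjusted p = 0.183), and the damage sensor gene Xpc and the polymerase gene Polh changes of 0.03 and 0.08 with overlap.

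Of the 3 metabolic and other genes tested, Dcxr rose (all genes, 4.49% higher). It encodes a reductase of dicarbonyls and L-xylulose and read 9.60, 9.65 and 9.66 on control arrays compared with 9.98, 10.04 and 9.88 on knockdown arrays. The groups were well apart (log2 fold change 0.33, SE 0.0705, adjusted p = 0.0211), or 1.26-fold. The call did not survive the removal of control array 2 or of knockdown arrays 1 or 2 (adjusted p up to 0.0867), in the authors' processed values (0.0996) and with median scaling (0.144). Tigar, a phosphatase that slows glycolysis and carries a 20-base site, had a log2 fold change of 0.02 with an interval of -0.14 to 0.19, and Bloc1s2, a subunit of a complex that forms lysosome-related organelles, of 0.04.

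**Figure D4:**
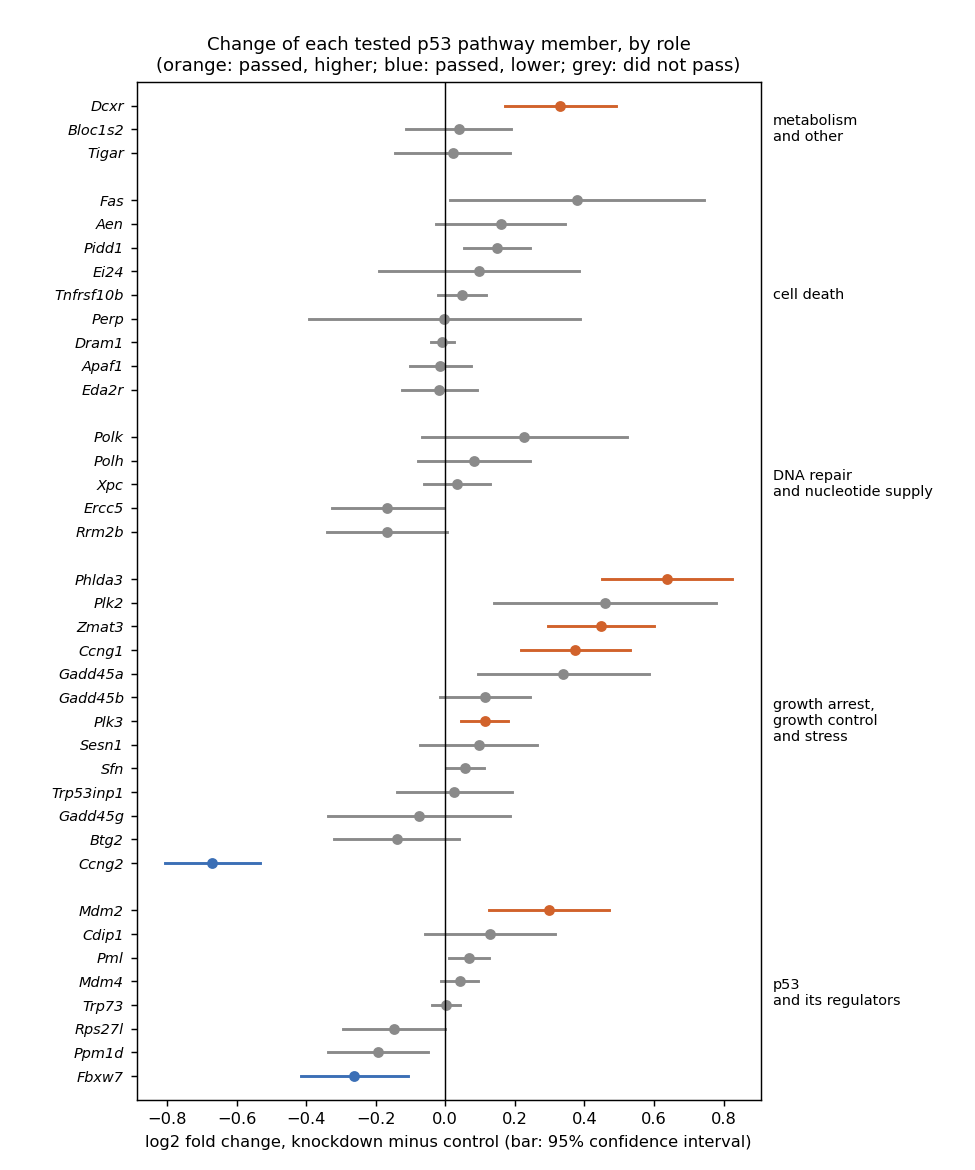
log2 fold change of the 38 tested members with 95% confidence intervals from limma, grouped by role. There are 4 orange points in the growth arrest group, and Ccng2 at -0.67 stands alone on the left. None of the 9 death genes or 5 repair genes passed in this fit, which has no replicate block. Fas and Pidd1 passed with the block. The grouping was made by hand, and the death gene Cdip1 stands among the regulators.

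The measured changes of members with a promoter match differed in sign. Of the 8 that passed, 7 had a promoter sequence, and of these Ccng1 held a 20-base site and Mdm2 a 10-base motif. Among all 34 members with a promoter, 11 held a 10-base motif and 7 a 20-base site. The 5 other measured members with a 20-base site, Aen, Rps27l, Sesn1, Tigar and Trp73, had log2 fold changes of 0.16, -0.15, 0.10, 0.02 and 0.00077, and none passed. Beside Mdm2, the measured members with a 10-base motif alone were Gadd45a, Polk, Ei24, Pml and Ppm1d. Their log2 fold changes were 0.34, 0.23, 0.10, 0.07 and -0.19, and none passed. Phlda3, Plk3 and Dcxr rose, and Ccng2 and Fbxw7 fell, without a match in these windows. Zmat3 had no promoter entry.

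By replicate number, 18 of the 38 members were higher in the knockdown for all 3 numbers, 7 were lower for all 3 and 13 were mixed, where 24.4% of all genes were higher and 23.9% lower for all 3. Slopes between scanner gains in the file headers split the arrays into 2 sets, control replicates 1 and 2 with knockdown replicate 2, and control replicate 3 with knockdown replicates 1 and 3. All 8 members that passed kept their sign within both sets, for example Phlda3 at 0.62 and 0.71, Ccng2 at -0.61 and -0.69 and Mdm2 at 0.25 and 0.34. With 2 arrays against 1 in each set no member passed in limma (the smallest adjusted p among the 8 was 0.136 and 0.0742), and at an unadjusted p below 0.05 there were 5 higher and 1 lower in the first set (all genes, 6.58% and 5.43%) and 10 higher and 4 lower in the other (8.86% and 9.14%). The lone array of a set is assumed to vary like the others. With the set as a block, 4 members rose (Phlda3, Zmat3, Ccng1 and Dcxr) and 1 fell (Ccng2). No share of all genes is set beside these counts, so they are not read as a result about the members.

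**Figure D5:**
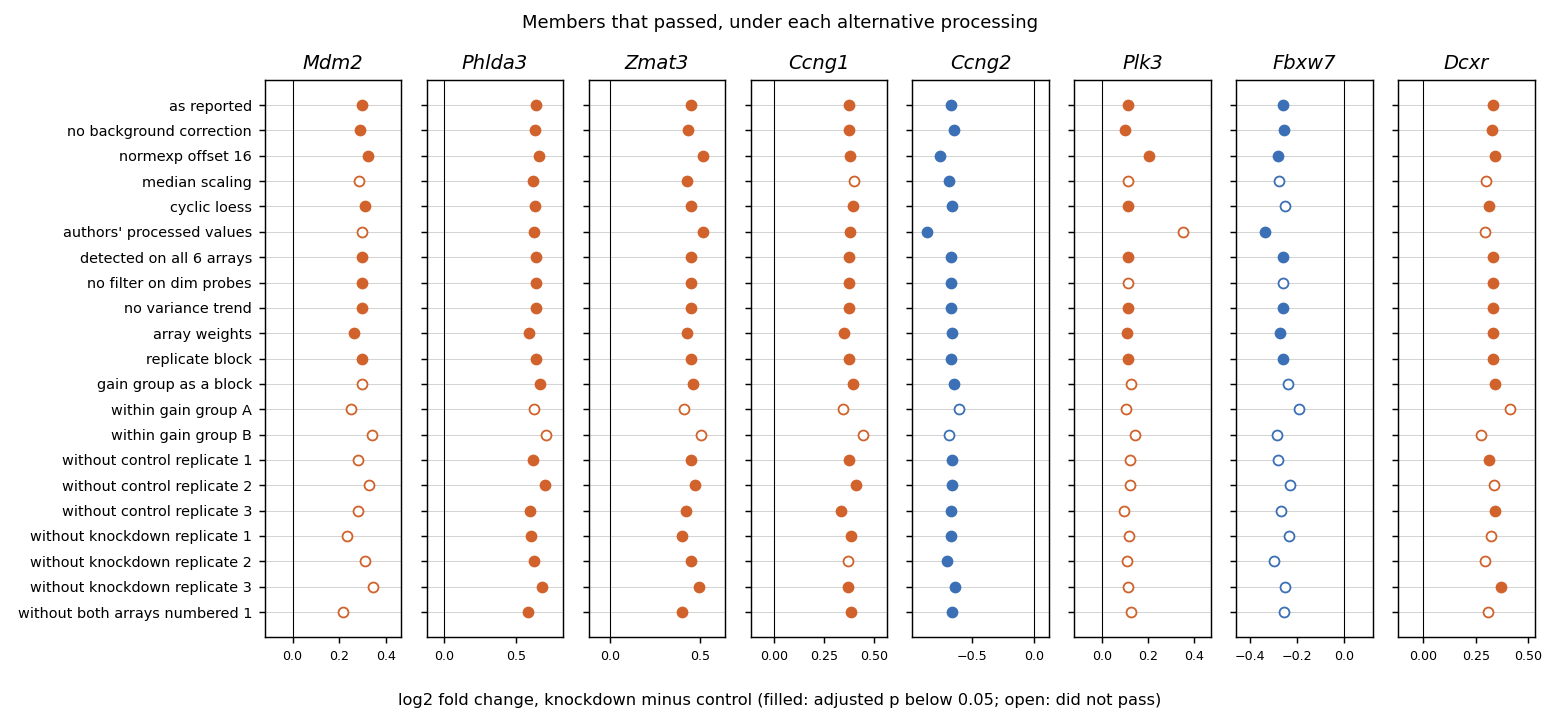
log2 fold change of the 8 members that passed, as reported and under each alternative, each panel on its own axis; filled points have an adjusted p below 0.05 and open points do not. No point of these 8 members crosses 0, and Phlda3, Zmat3 and Ccng2 are open only in the 2 fits within a gain set.

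Genes of the pathway outside the 41 were taken from 3 further lists, whose counts stand beside 4.49% higher and 5.15% lower of all genes, or 11.9% and 12.8% at an unadjusted p below 0.05. These lists too were chosen with earlier results of these data known, so their counts are not an independent test. Of 30 other reported p53 targets tested, 6 rose and none fell by limma, and at an unadjusted p below 0.05 there were 8 higher and 3 lower. With the replicate block 7 rose and 2 fell. The best known is Cdkn1a, the CDK inhibitor p21, which read 8.69, 8.97 and 8.63 on control arrays compared with 9.50, 9.31 and 9.31 on knockdown arrays, without overlap (log2 fold change 0.61, SE 0.101, adjusted p = 0.00765). It passed under 17 of 18 alternatives and was lost without both arrays numbered 1. Igfbp3, which binds insulin-like growth factors, rose by 1.07 (adjusted p = 0.00582), the lipase-like gene Abhd4 by 0.41 and the muscle creatine kinase gene Ckm by 0.13. Abhd4 was lost without knockdown replicates 1 or 2, and Ckm without any array but control replicate 2. Ckm is a dim probe (group means 6.07 and 6.21), and its change reached 0.53 among the alternatives. Of the 30 changes, 19 were positive and 11 negative. Bbc3 (0.000073) and Pmaip1 (-0.49, adjusted p = 0.329 in limma) overlapped between groups and did not pass. Ercc1 (-0.25) and Tnfaip8 (-0.28) lay lower without overlap but did not pass. Bax and Gdf15 had no annotated probe.

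Of 33 upstream kinases, cofactors and ubiquitin ligases of p53, 1 rose and 5 fell, and at an unadjusted p below 0.05 there were 2 higher and 9 lower. With the replicate block 1 rose and 6 fell. Cop1, a ubiquitin ligase for which p53 is a known substrate, fell on both of its probes, by 0.69 (adjusted p = 0.00124) on the brighter probe and 0.37 (adjusted p = 0.00258 over all probes) on the other. The brighter probe read 10.23, 10.14 and 10.07 on control arrays compared with 9.43, 9.49 and 9.44 on knockdown arrays, with no overlap, and it passed under all 18 alternatives. Prkdc, the catalytic subunit of DNA-dependent protein kinase, rose by 0.50 (adjusted p = 0.00646), and Mre11a, a nuclease of the break-sensing complex that activates Atm, fell by 0.47 (adjusted p = 0.0073). Both passed under all 18 alternatives. Atm, the kinase that signals DNA breaks to p53, fell by 0.20 (adjusted p = 0.0396), a call that held without knockdown replicate 3 but was lost without any other array (adjusted p up to 0.141). Rpl5, a ribosomal protein that restrains Mdm2 and whose sequence has many genomic copies, fell by 0.33 and was lost without any array but control replicate 2 (adjusted p up to 0.101).

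Of 17 genes that p53 is known to lower through p21 and the DREAM complex, none rose and 3 fell by limma, namely Cdc20 (-0.33), Cks2 (-0.29) and Cdk1 (-0.28), and 15 of the 17 had negative values (median -0.19), as did 49.4% of all genes. At an unadjusted p below 0.05 there were 1 higher and 10 lower, and with the replicate block none rose and 6 fell. Cdk1 and Cks2 lost their calls whichever array was left out (adjusted p reaching 0.103 and 0.109), and Cdc20 needed control replicate 3 and knockdown replicates 1 and 3 to pass. These mitotic genes overlap the proliferation markers given above, so the 2 sets of values are not independent.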

How the data were processed

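RNA of 6 samples (3 control, 3 Chd7 knockdown) was hybridised to single-colour arrays of 27456 spots. The deposited scanner files give, per the file headers, the median intensity of each spot from scans at 3 gains, joined by a least-squares fit; a series table holds the authors' processed values, whose scale and normalization are not given in the sources used here. The scanner software settings are likewise not given in the sources used here. From the deposited intensity, background was corrected with normexp (offset 50, on the median spot signal, since the local background followed the signal), arrays were quantile normalized, and log2 values were fitted with limma 3.58.1 (R 4.3.3, Python 3.11.15) for 17390 genes whose raw signal lay above the mean of blank spots plus 2 SD on at least 3 arrays. Control spots and 1 probe marked bad at every gain were left out. The brightest probe stands for a gene. The authors' values were read as log2(value + 1) in one alternative. Adjusted p is Benjamini-Hochberg over all genes, with 0.05 as threshold. The limma fit with group alone was tested on simulated data with independent arrays. The normalization, the replicate block and the promoter search were not part of that test.

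Gene symbols come from the platform annotation (20690 probes with 1 symbol, 2783 with none). Promoters come from RefSeq, build GRCm38.p6. The members and all lists were chosen with earlier results of these data known. Values on every array are given for members that passed, for Mdm2, Mdm4 and Ppm1d, and for the 6 largest changes among the rest. Pidd1, Rps27l, Perp and Ei24 were added after their values were seen, as were the named markers and stress factors. Of other pathway genes the 12 with the smallest p are named, with Cdkn1a. Bbc3, Pmaip1, Ercc1, Tnfaip8, Bax and Gdf15 were also added afterwards. Deviations from the group means correlated by 0.362, 0.382 and 0.228 between arrays of the same replicate number, each over 0.1, so the numbers are treated as pairing the samples. The fit without the block was set as the main one, so its calls, SEs and intervals leave that pairing out. Counts with the block stand beside it. The pairing was read from the data, since the labels do not say what a number marks.

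Alternatives covered the background, scaling, filter, variance model, replicate block, scanner gain set, the probes taken singly, and the removal of single arrays.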

Additional observations from a re-analysis of the deposited data

How the results depend on the processing

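Of the members, 6 rose and 2 fell as reported. With median scaling 2 rose and 1 fell, in the authors' processed values 3 rose, with the replicate block 10 rose, and 3 rose and 1 fell when both arrays numbered 1 were dropped. With cyclic loess, no filter on dim probes or the gain set as a block 1 fell. Leaving out each array in turn gave 2 to 5 that rose and 1 that fell. Within the gain sets 0 and 0 rose and 0 and 0 fell, with the unadjusted counts given above. Of the other pathway genes 7 rose and 8 fell. With median scaling and in the authors' values 5 fell, with the replicate block 14 fell, with the gain block 4 rose and 4 fell, within the gain sets 0 and 0 rose and 1 and 0 fell, without both arrays numbered 1 there were 2 and 2, at an adjusted threshold of 0.1 17 fell, and leaving out each array gave 3 to 6 that rose and 2 to 5 that fell. The log2 fold change of Mdm4 was reversed within the second gain set, at -0.0109. Over all genes 781 rose and 896 fell, against 1282 and 1293 with the replicate block, 378 and 422 when both arrays numbered 1 were dropped, 357 and 735 in the authors' values, and 355 to 681 and 395 to 772 leaving out each array. The causes were not tested. All-gene counts are not set beside median scaling, cyclic loess, no filter on dim probes, the gain fits or the threshold of 0.1. Counts under those settings are therefore not read as a result about the members or the other pathway genes. The replicate block changed no other call among the members beyond the 4 named above. Dim probes limit Mdm4, Trp73, Dram1, Sfn, Tnfrsf10b and Pml, whose mean lay below 6.2 where the floor is 5.64. The means of Plk3 and Pidd1 over the 6 arrays lay a little above 6.2, and their changes too were larger in the authors' processed values.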

Other observations

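A list of 13 tested genes of the stress response, most of them transcription factors that also control p53 targets, held 4 that rose, none that fell and 9 that did not pass, by limma with an adjusted p below 0.05 (all genes, 4.49% higher and 5.15% lower). At an unadjusted p below 0.05 there were 6 higher and 0 lower (all genes, 11.9% and 12.8%), and with the replicate block 5 rose. Chac1, a glutathione-degrading enzyme gene of the integrated stress response, rose by 1.96 on the log2 scale. Atf4, the central factor of that response, rose by 0.74, its partner Ddit3 by 0.64 and Atf3 by 0.08. Atf3 is a dim probe (group means 5.82 and 5.90) near the floor of 5.64, so its change is compressed. This list too was chosen with earlier results of these data known.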
